A study of Mus musculus with 9 samples.

Results

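Unconventional myosins are the actin motors outside the filament-forming class II, and 8 of them (Myo1c, Myo1d, Myo1e, Myo1f, Myo1g, Myo5a, Myo6 and Myo9b) were followed in regulatory T (Treg) cells with and without the Hippo kinases Mst1 and Mst2. The probe sets whose annotated gene symbol was exactly one of these names were taken. They comprised 9 of the 41345 probe sets on the array, with 2 for Myo1g and 1 for each other gene, and the 8 genes stood among 22180 genes with a symbol of their own and among 23 unconventional myosins measured. For Myo1g, the probe set that was brighter on average stood for the gene. The 8 genes were chosen by their levels in knockout and wild-type cells, the comparison described here, with no threshold stated, so their own differences are given as a description. How many of them a test calls is given beside the share or count over all genes, with nothing read from it.

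The knockout cells were Mst1/Mst2-null Treg cells (n = 4, called KO here), descended from C57BL/6 donors with YFP and Cre at the Foxp3 locus and loxP-flanked Stk4 and Stk3, the genes of Mst1 and Mst2. They were set against wild-type Treg cells (n = 5, called WT here) from C57BL/6 donors with the same Foxp3YFP-Cre allele and no floxed gene. All samples were CD45.2+ CD4+ YFP+ cells sorted 2 months after transplant from RAG1-/- recipients that had also received wild-type CD45.1 marrow in equal parts, so the cells of either genotype had matured beside wild-type competitors. Cre driven from Foxp3 acts once Foxp3 is on, and such hosts have no mature T or B cells of their own but keep other blood cells. The labels state neither the age of the mice nor whether a sample is 1 mouse or a pool, so the spread between samples may be partly technical.

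A myosin heavy chain has a head that hydrolyses ATP and pulls on actin, a neck that binds light chains, and a tail that sets where the motor works. Class I myosins are single-headed and bind membrane lipids through the tail. They tie the actin cortex to the plasma membrane and so affect membrane tension, endocytosis and cell movement. Class V carries organelles towards the plus end of actin filaments, class VI moves towards the minus end and serves endocytosis and autophagy, and class IX carries a GTPase-activating domain in its tail. In lymphocytes these motors act at the cell edge and at contacts with other cells.

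The proximal promoters of 3 members are shown because Myo1f and Myo1e had the largest differences between the genotypes, while Myo1g was the member with a higher mean in KO cells. Each is 300 bases long and runs 5′ to 3′ from upstream of the gene's start to just inside the gene, as RefSeq gives it for mouse build GRCm38.p6 (7 of the 8 genes had an entry, and Myo1d had none). Myo1f lies at chr17:33555457-33555756 on the plus strand, Myo1e at chr9:70207100-70207399 on the plus strand and Myo1g at chr11:6520909-6521208 on the minus strand. Capitals mark matches to any of 6 motifs searched on both strands.
Myo1f: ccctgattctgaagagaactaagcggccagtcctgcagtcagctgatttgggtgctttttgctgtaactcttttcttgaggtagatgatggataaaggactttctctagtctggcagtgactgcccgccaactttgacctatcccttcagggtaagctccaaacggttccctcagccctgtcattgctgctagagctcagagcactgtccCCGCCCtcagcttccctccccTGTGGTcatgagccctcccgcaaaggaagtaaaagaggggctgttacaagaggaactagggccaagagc
Myo1e: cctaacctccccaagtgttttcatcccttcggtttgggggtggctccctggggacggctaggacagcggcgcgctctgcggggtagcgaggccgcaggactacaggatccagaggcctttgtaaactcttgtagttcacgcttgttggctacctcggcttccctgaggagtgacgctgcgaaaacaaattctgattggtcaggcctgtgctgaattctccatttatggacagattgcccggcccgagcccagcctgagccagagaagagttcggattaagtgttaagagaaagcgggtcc
Myo1g: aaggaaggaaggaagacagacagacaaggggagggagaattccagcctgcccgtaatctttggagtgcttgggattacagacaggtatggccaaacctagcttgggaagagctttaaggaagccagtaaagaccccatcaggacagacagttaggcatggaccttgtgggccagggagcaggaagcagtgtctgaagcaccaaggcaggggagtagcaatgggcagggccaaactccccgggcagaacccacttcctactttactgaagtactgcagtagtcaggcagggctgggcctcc
The motifs were TTCNNNGAA (STAT factors), GGAATG (TEAD factors), ACCACA (RUNX factors), GTAAACA (FOXO factors), CCGGAAGT (ETS factors) and GGGCGG (the GC box). The Myo1f promoter held 1 RUNX motif, on the minus strand at position -19 relative to the start, and 1 GC box at -40. The Myo1e and Myo1g windows held no match to any of the 6. Among 32851 RefSeq promoters of the same length, 16.8% held the RUNX motif, 35.7% the GC box, 8.30% the STAT motif and 14.7% the TEAD motif. No member's window held the STAT motif, and that of Myo9b and that of Myo6 held the TEAD motif.

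Values are log2 RMA values, and every difference is KO minus WT. Probes differ in brightness, so the level of a gene is compared between samples only and never with that of another gene. Across the arrays the median of all probe sets was 4.04, and signal under it was not shown to exceed background. Foxp3, the defining factor of Treg cells, was 10.72 ± 0.092 (SD, n = 4) in KO and 10.70 ± 0.049 (SD, n = 5) in WT cells. The 9 measured Treg and T cell markers averaged 9.67 to 9.86 in KO and 9.97 to 10.02 in WT arrays, and all 9 had a mean above 4.04. Of these 9 markers 3 had a higher KO mean and 5 had an unadjusted p under 0.05, where 14.9% of all genes had such a p. The limma test was passed by 1, against 2.32% of all genes. It was Ikzf2, at 9.31 in KO and 10.03 in WT cells (limma adjusted p = 0.033). Stk4 was 7.64 ± 0.15 (SD, n = 4) in KO and 7.91 ± 0.10 (SD, n = 5) in WT cells (limma adjusted p = 0.146). These values do not by themselves show the deletion. Whether the probe set spans exons outside the deletion was not tested, and Stk3 was not analysed here. KO arrays agreed less with each other (mean r over genes from 0.9866 to 0.9888) than WT arrays did (0.9928 to 0.9936). The mean r of KO replicate 4 was 0.9873 with the other KO arrays and 0.9877 with the WT arrays.

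The long-tailed class I myosins Myo1f and Myo1e had the largest differences of the 8. Myo1f is a motor of blood cells that in mice regulates neutrophil adhesion. Its values were 5.10, 4.66, 5.39 and 6.50 in KO replicates 1 to 4, against 6.86, 7.87, 7.38, 7.01 and 7.15 in WT replicates 1 to 5. The groups did not overlap, and KO replicate 4 lay closer to the lowest WT sample than to the other KO samples. The mean was 5.41 ± 0.79 (SD, n = 4) in KO and 7.25 ± 0.39 (SD, n = 5) in WT cells, a difference of -1.84 ± 0.33 (SE, 95% interval -2.58 to -1.10) or 3.58-fold lower. Leaving out KO replicate 4 made it -2.20, and leaving out KO replicate 2, the lowest sample, made it -1.59.

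Myo1e, a close relative of Myo1f that takes part in endocytosis and whose human gene is needed for the kidney filter, had 6.59, 6.93, 6.47 and 6.42 in KO replicates 1 to 4, against 7.47, 7.78, 7.59, 7.39 and 7.27 in WT replicates 1 to 5. Each KO sample lay below each WT sample, with a gap of 0.34 between the groups. The mean was 6.60 ± 0.23 (SD, n = 4) in KO and 7.50 ± 0.20 (SD, n = 5) in WT cells, a difference of -0.90 ± 0.13 (SE, 95% interval -1.18 to -0.61) or 1.86-fold lower. The spread of Myo1e was alike in both genotypes. That of Myo1f was wider in KO cells, largely through replicate 4 (6.50, against 4.66 to 5.39 in the other KO arrays). Within KO cells these myosins did not follow each other: replicate 4 was the highest for Myo1f, by 1.09 above the KO mean, and the lowest for Myo1e, by -0.19. Within WT cells replicate 2 was the highest for both genes (0.61 above the WT mean for Myo1f and 0.28 for Myo1e).

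**Figure D1:**
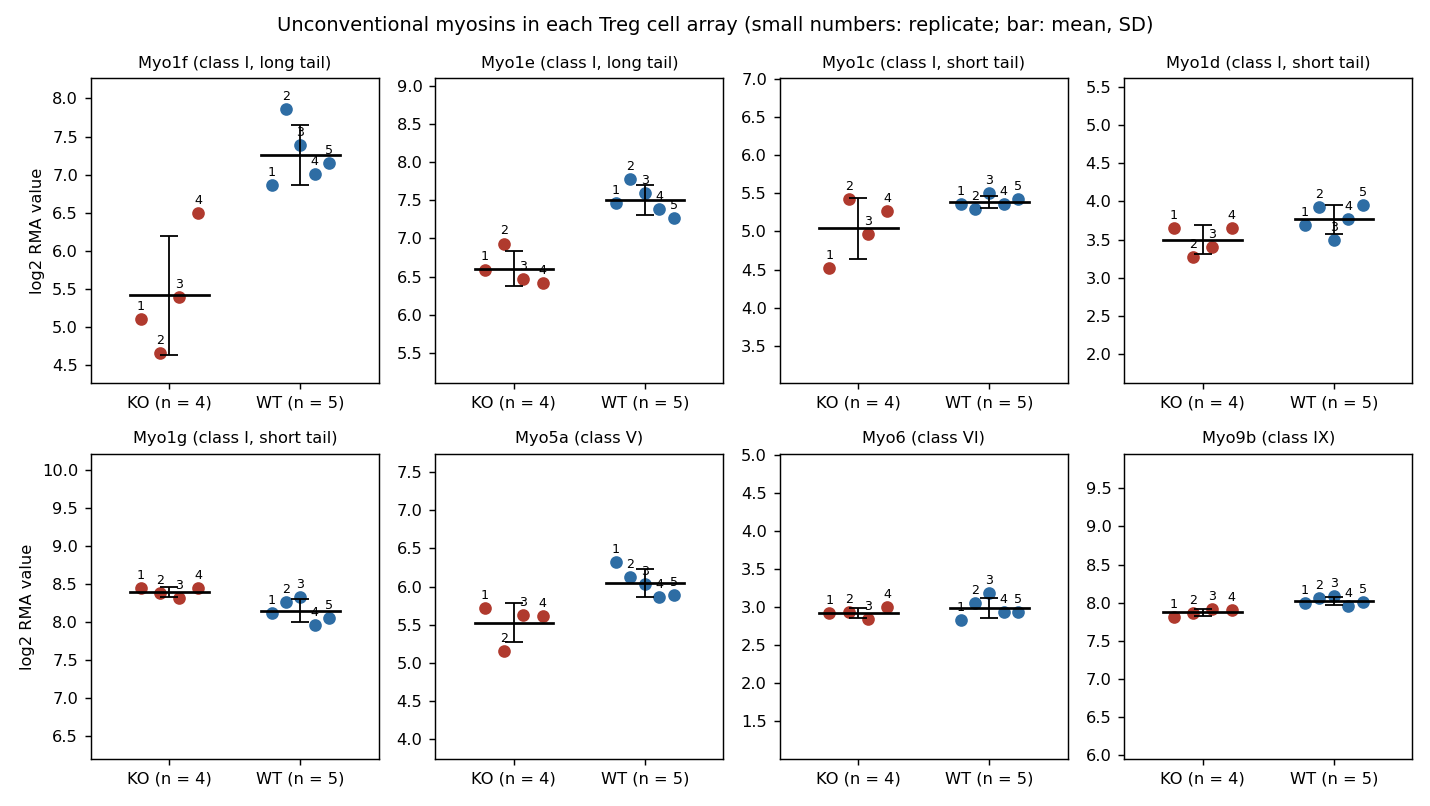
Log2 RMA values of the 8 myosins in each array, KO left (n = 4) and WT right (n = 5), with replicate numbers above the points and bars for the mean and SD; every panel spans 4 log2 units. Myo1f and Myo1e show groups that do not overlap (KO 4.66 to 6.50 against WT 6.86 to 7.87, and KO 6.42 to 6.93 against WT 7.27 to 7.78), and Myo6 and Myo9b lie nearly flat.

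The short-tailed class I myosins differed among themselves. Myo1c, which helps deliver glucose transporters to the surface of fat cells and has a nuclear form, had 4.52, 5.43, 4.97 and 5.27 in KO replicates 1 to 4, against 5.36, 5.29, 5.50, 5.36 and 5.42 in WT replicates 1 to 5. KO replicate 2 lay within the WT range and KO replicate 1 far under it, so the groups overlapped. The difference was -0.34 ± 0.16 (SE, 95% interval -0.69 to 0.0045) and -0.17 without KO replicate 1. The SD of Myo1c was 0.40 in KO (n = 4) and 0.079 in WT cells (n = 5).

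Myo1d, which directs left-right asymmetry in fruit flies, had 3.65, 3.27, 3.40 and 3.65 in KO replicates 1 to 4, against 3.69, 3.93, 3.50, 3.76 and 3.96 in WT replicates 1 to 5. All 9 values were under 4.04 and the groups overlapped, so its difference of -0.27 ± 0.12 (SE) concerns signal not shown to exceed background.

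Myo1g, a myosin of blood cells that shapes T cell membrane tension and movement in mice, was the only member with a higher KO mean. Its brighter probe set had 8.44, 8.38, 8.31 and 8.44 in KO replicates 1 to 4, against 8.12, 8.27, 8.33, 7.96 and 8.06 in WT replicates 1 to 5. WT replicate 3 lay above the lowest KO sample, so the groups overlapped. The difference was 0.25 ± 0.083 (SE, 95% interval 0.062 to 0.43). The other probe set averaged 8.05 ± 0.014 (SD, n = 4) in KO and 8.05 ± 0.074 (SD, n = 5) in WT cells, a difference of 0.0026 (95% interval -0.13 to 0.13). The probe sets of Myo1g thus disagreed, and the mean of both gave 0.12.

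Myo5a, the melanosome carrier mutated in dilute mice, also has roles in vesicle transport. Its values were 5.72, 5.15, 5.63 and 5.61 in KO replicates 1 to 4, against 6.32, 6.13, 6.04, 5.87 and 5.89 in WT replicates 1 to 5. No KO sample reached the WT range, although KO replicate 1 came within 0.15 of it. The difference was -0.52 ± 0.13 (SE, 95% interval -0.81 to -0.23) or 1.43-fold lower. Without KO replicate 2 it was -0.40.

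Myo9b, a class IX myosin that in mouse macrophages is needed for movement towards chemokines, had 7.81, 7.87, 7.91 and 7.90 in KO replicates 1 to 4, against 7.99, 8.07, 8.09, 7.96 and 8.01 in WT replicates 1 to 5. The groups did not overlap, yet the gap was 0.051 and the difference only -0.15 ± 0.056 (SE, 95% interval -0.28 to -0.028), and it was -0.078 after quantile normalization of the gene values. Myo6, mutated in deaf Snell's waltzer mice, was 2.93 ± 0.062 (SD, n = 4) in KO and 2.99 ± 0.13 (SD, n = 5) in WT cells. Every value was under 4.04, the groups overlapped, and the difference was -0.061 ± 0.077 (SE).

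Of the 8 genes, 7 had a lower and 1 a higher mean in KO cells, and the median difference was -0.31, against 0.0023 over all 22180 genes. In 4 members (Myo1e, Myo1f, Myo5a and Myo9b) every KO value lay below every WT value, as in 4.40% of all genes, and in 0 members every KO value lay above, against 1.76% of all genes. By limma, 2 members (Myo1e and Myo1f) had an adjusted p under 0.05, where 2.32% of all genes did. Both were lower in KO cells, as were 1.89% of all genes at that threshold, and 0 were higher, against 0.428% of all genes. Since the genes were picked with this comparison in view, nothing is read from these counts. In bulk RNA a lower share of cells that express a gene and less RNA per cell cannot be told apart.

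Myeloid cells also express Myo1f and Myo1e, so markers of other cell types were read beside them. The 14 myeloid markers averaged 4.31, 4.22, 4.55 and 5.34 in KO replicates 1 to 4, against 4.17 to 4.72 in WT arrays, and 12 of the 14 had a higher mean in KO cells, where Myo1f and Myo1e were lower. By limma 0 of the 14 passed, with an adjusted p of 0.184 or more. An unadjusted p under 0.05 was found for 5, where 14.9% of all genes had such a p. KO replicate 4, the array with the highest myeloid average, was also the KO array with the highest Myo1f, and the Myo1f difference was larger without it, as given above. The same array had the lowest Myo1e (6.42). Among WT arrays the highest myeloid average (4.72) was that of replicate 1, which had the lowest WT Myo1f (6.86). WT replicate 2, at a myeloid average of 4.70, had the highest Myo1f (7.87). Of the myeloid markers 8 had a mean above 4.04, among them Lyz2 (6.27 in KO, 5.68 in WT cells) and Tyrobp (7.16 in KO, 6.42 in WT cells), while Itgam, Cd14 and Itgax lay under it. Cebpb, also above 4.04, went the other way (4.09 in KO, 4.65 in WT cells). S100a8 was lower in KO cells by very little (5.156 in KO, 5.16 in WT cells). In KO replicate 4 the neutrophil genes S100a8 and S100a9 stood at 8.90 and 8.41, against KO means of 5.16 and 5.83 and WT means of 5.16 and 5.83. These KO means include replicate 4 itself. The means of S100a9 and of Mpeg1 (3.845) were equal in both groups as rounded, and both genes count among the 12. The 9 B cell markers averaged 4.95 to 5.71 in KO and 4.87 to 5.51 in WT arrays, with 6 above 4.04 and 8 with a higher KO mean. The 6 NK cell markers averaged 3.41 to 3.62 in KO and 3.37 to 3.60 in WT arrays, with 1 above 4.04 and 4 with a higher KO mean. The CD8 genes Cd8a and Cd8b1 averaged 5.63 to 6.19 in KO and 5.15 to 5.68 in WT arrays, and both had a higher KO mean. The part of other cells in the myosin values was not tested. The heat shock genes Hspa1a and Hspa1b averaged 3.70 to 10.13 in KO and 3.06 to 10.21 in WT arrays. With their mean as a covariate the differences of Myo1f and Myo1e were -1.83 and -0.89.

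**Figure D2:**
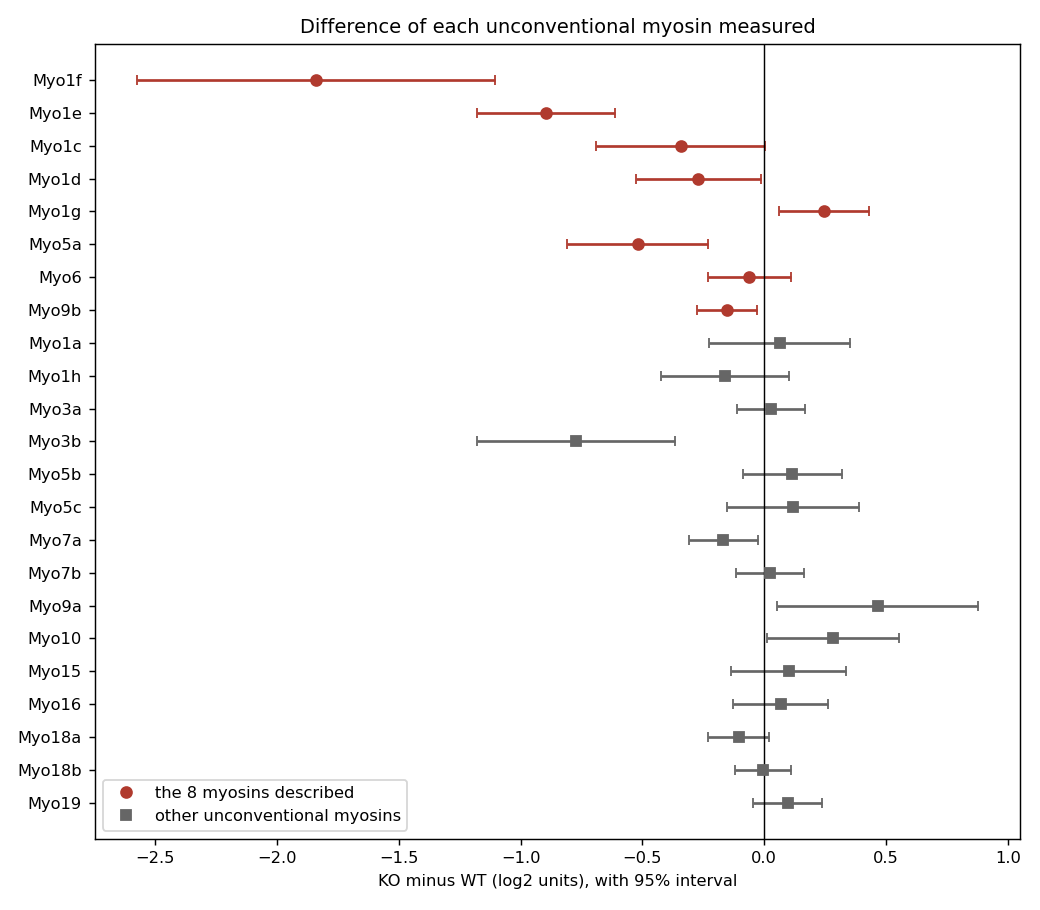
KO minus WT difference in log2 units with its 95% interval for the 8 myosins described (circles, top) and the 15 other unconventional myosins measured (squares). Myo1f (-1.84) and Myo1e (-0.90) lie farthest to the left, and Myo3b (-0.77) is the lowest of the others.

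The remaining unconventional myosins were examined next, as the rest of the family. By limma 0 of the 15 measured passed over all genes, with 4 at an unadjusted p under 0.05, where 14.9% of all genes had such a p. Their median difference was 0.063, and 5 had a lower and 10 a higher KO mean. Only 6 of the 15 had a mean above 4.04. The smallest p belonged to Myo3b, a class III myosin with a kinase domain known from sensory cells. It had 4.49, 4.51, 4.52 and 5.25 in KO replicates 1 to 4, against 5.58, 5.60, 5.78, 5.14 and 5.22 in WT replicates 1 to 5. KO replicate 4 lay within the WT range, so the groups overlapped. The difference was -0.77 ± 0.18 (SE, limma adjusted p = 0.0606), and it passed without KO replicate 4 (-0.96, limma adjusted p = 0.00958) or with dim genes left out of the fit (limma adjusted p = 0.0346). Without KO replicate 4 the class X myosin Myo10 also passed (0.41, limma adjusted p = 0.0392), although its mean was 4.11 in KO and 3.82 in WT cells, near or under the median of all probe sets. Myo7a, an inner ear motor, differed by -0.17 ± 0.064 (SE, limma adjusted p = 0.237). Myo9a, the relative of Myo9b, had a difference of 0.47 ± 0.19 (SE, limma adjusted p = 0.264), opposite in sign to that of Myo9b, and is named here after its value was seen.

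Class II heavy chains fell in 1 of 14 cases and rose in 0, where 1.89% of all genes fell and 0.428% rose, and the median difference was -0.0092. Only 2 of the 14 had a mean above 4.04. The gene that fell was Myh9, the heavy chain of non-muscle myosin IIA, which drives cortical contraction in T cells. Its values were 9.09, 9.27, 9.20 and 8.94 in KO replicates 1 to 4, against 9.53, 9.39, 9.59, 9.63 and 9.71 in WT replicates 1 to 5. The groups stood 0.12 apart. Myh9 fell by 0.45 on the log2 scale, with an SE of 0.087 (1.36-fold lower, limma adjusted p = 0.0277). The call was lost without KO replicate 1, 3 or 4 or WT replicate 1, 3, 4 or 5, at limma adjusted p from 0.0525 (without KO replicate 4) to 0.0813 (without KO replicate 1). The other non-muscle heavy chains, Myh10 (0.10 ± 0.067, SE) and Myh14 (0.099 ± 0.088, SE), named after their values were seen, had means under 4.04 and did not pass.

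Light chains had 0 of 6 measured members past the limma test, with 3 at an unadjusted p under 0.05, where 14.9% of all genes had such a p, and all 6 had a lower KO mean (median -0.19). Myl12a, a regulatory light chain of myosin II, was 10.53 ± 0.13 (SD, n = 4) in KO and 10.81 ± 0.043 (SD, n = 5) in WT cells, a difference of -0.28 (limma adjusted p = 0.0773) with groups that did not overlap. The mean of its probe sets gave -0.15 (limma adjusted p = 0.473), while it passed with trend and robust variances (limma adjusted p = 0.039) and with array weights (limma adjusted p = 0.0412). Myl6, an essential light chain, differed by -0.47 ± 0.15 (SE, limma adjusted p = 0.156). KO replicate 2, at 7.92, lay within the WT range of 7.63 to 8.11, and without it Myl6 (-0.64, limma adjusted p = 0.0149) and Myl12a (-0.34, limma adjusted p = 0.0213) passed.

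Among regulators, mostly of myosin II (kinases, phosphatase subunits, a chaperone and a GTPase), 0 of 13 measured genes passed the limma test (median -0.016). Of these, 3 had an unadjusted p under 0.05, where 14.9% of all genes had such a p. Ppp1r12a, the targeting subunit of myosin phosphatase, differed by -0.29 ± 0.081 (SE, limma adjusted p = 0.112). Unc45a, which helps myosin heads fold, differed by 0.19 ± 0.064 (SE, limma adjusted p = 0.186). Of 25 cargo adaptors and Rab partners, 1 fell and 0 rose (median -0.085), against 1.89% and 0.428% of all genes. Rab27a, the GTPase that links melanosomes and secretory granules to myosin Va, had 7.39, 7.53, 7.62 and 7.44 in KO replicates 1 to 4, against 7.76, 7.92, 7.86, 7.94 and 7.81 in WT replicates 1 to 5. The groups stood 0.14 apart. Rab27a fell by 0.36 on the log2 scale, with an SE of 0.069 (1.29-fold lower, limma adjusted p = 0.0249). Leaving out KO replicate 1 or 4 or WT replicate 2, 3 or 4 ended the call (limma adjusted p from 0.0512 to 0.0699), as did quantile normalization of the gene values (0.0833). Mlph, which bridges Rab27a and Myo5a in pigment cells and is named after its value was seen, differed by -0.027 ± 0.093 (SE).

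Over these 73 measured genes of the myosin machinery that were not among the 8, 2 passed, both lower, against 1.89% of all genes lower by the same test. Their median difference was -0.035, and 44 had a lower and 29 a higher KO mean.

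**Figure D3:**
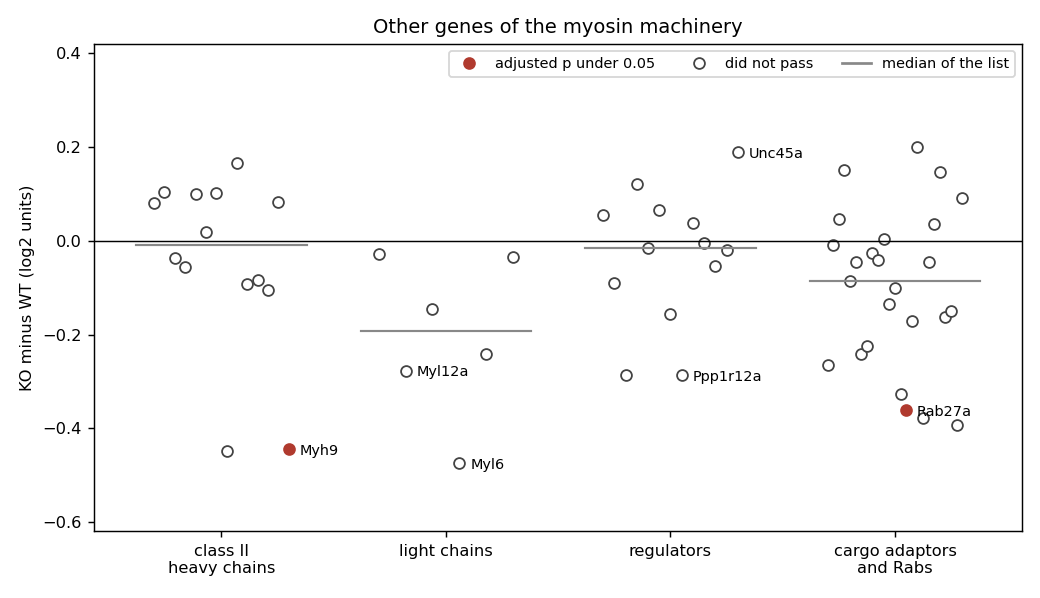
KO minus WT difference in log2 units for each measured gene of 4 groups of the myosin machinery, with filled points for genes at a limma adjusted p under 0.05 and a line at the median of each group. Myh9 (-0.45) and Rab27a (-0.36) are the filled points.

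The genes whose pattern was most like that of Myo1f, the member with the largest difference, were found by the root mean square distance between log2 profiles over the 9 arrays, each centred on its own mean. The nearest were Il10 (0.22), the gene of an inhibitory cytokine, Osbpl3 (0.26), a lipid-binding protein gene, Gprasp2 (0.32), a gene of receptor sorting, Cxcr3 (0.35), a chemokine receptor gene, and the unnamed gene model Gm16894 (0.37). The median distance over all genes was 1.06. In all 5 every KO value lay below every WT value, as for Myo1f. WT replicate 2 was the highest array for all 5, as for Myo1f, and KO replicate 4 was the highest KO array for Il10 (5.49), Osbpl3 (5.28), Gprasp2 (5.09) and Cxcr3 (7.15), though not for Gm16894. Among the other members Myo1e was nearest to Myo1f at 0.76 and Myo1g farthest at 1.15. A gene with the same value on every array would lie at 1.05. The distance therefore reflects the size and sign of a gene's difference as well as its pattern. The genes were picked for their likeness over these same arrays, so the features they share with Myo1f follow largely from the choice and are a description only.

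**Figure D4:**
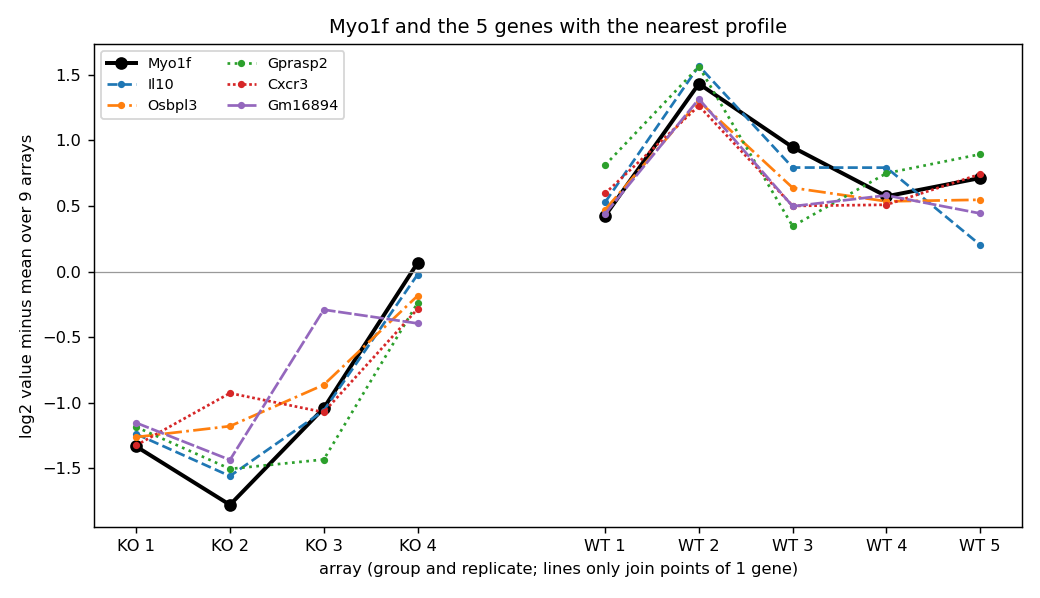
Log2 values, centred on each gene's own mean across 9 arrays, for Myo1f (black) and the 5 genes with the nearest profile, KO arrays left and WT arrays right, with lines that only join the points of a gene within a group. WT replicate 2 is the highest array for every gene shown, and KO replicate 4 is the highest KO array for Myo1f and all but Gm16894.

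The members are spread over the genome. In the reference gene order Myo1e, Myo5a and Myo6 lie on chromosome 9, as does Rab27a, and Myo1c, Myo1d and Myo1g lie on chromosome 11. Myo1f is on chromosome 17 and Myo9b on chromosome 8. None shares a chromosome with Stk4 (chromosome 2) or Stk3 (chromosome 15), the genes altered in KO donors, while Myh9 is on chromosome 15 and Myo3b on chromosome 2. Among the 10 measured genes nearest to Myo1e, 5 on either side, 1 passed the limma test (Fam81a, with a difference of -0.51), as did 1 beside Myo9b (Mir1969, -0.44) and 1 beside Myh9 (Eif3d, -0.45). The other 6 members had 0 such neighbours, and over all genes 2.32% passed.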

How the data were processed

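Each of 9 sorted mouse Treg cell samples (4 KO, 5 WT) was hybridised to 1 array after NuGEN amplification of 1 to 20 ng RNA, per the labels' protocols. The deposited values are log2 expression values per probe set, for which the submitters' processing notes name RMA and Affymetrix Expression Console 1.1 as the authors' tools. Scanner values and the genome build of the array were not used here, and precision is set by how many arrays there are. Of 41345 probe sets, 23521 had 1 gene symbol in the platform annotation, giving 22180 genes, and symbols were updated to GRCm38.p6 by Entrez identifier (23328 matched). KO and WT were compared by limma 3.58.1 (lmFit and eBayes, R 4.3.3), two-sided, with no filter and no covariate, and called at 0.05 after Benjamini-Hochberg adjustment across the 22180 genes. The test was checked on simulated data. Its p-values cover only the spread among these arrays.

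The members and lists were chosen with earlier results of these data known. Named genes were the 8 members, up to 4 passing genes of each list by p (the 2 smallest p where none passed), Foxp3, Stk4 and the 5 nearest profiles to the member with the largest difference. Alternatives were median centring, quantile normalization, a filter on dim genes, the mean of probe sets, other variance models, array weights, a replicate block, a heat shock covariate and leaving out each array. Tables and plots used Python 3.11.15, pandas 2.3.3, numpy 2.4.6 and matplotlib 3.10.9.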

Additional observations from a re-analysis of the deposited data

Results flagged for a closer look

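In the second probe set of Myo1g, KO replicate 2 (8.07) stood apart from the other 3 KO samples, which had the same value of 8.04, so its gap to them took up the whole range of the group. The step is 0.027 log2 units. Of 18 groups of members' values tested in this way 1 stood out, and chance flags about 1 in 20 where values are not tied. With 3 equal values any different remaining value is flagged, so that rate does not cover this group.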

How the results depend on the processing

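No member's difference changed sign under any alternative run, although Myo1d and Myo6 had none with dim genes left out. The difference of Myo1g was 0.12 as the mean of its probe sets and that of Myo9b -0.078 after quantile normalization. The median over the members was -0.31, and -0.43 over the 6 that passed the filter on dim genes (-0.37 to -0.25 when 1 array was left out). The members were chosen by this same comparison, so nothing is read from their calls, and the counts over all genes follow. Of the 8 members 2 were called, 1 with the replicate block, and 1 to 2 when 1 array was left out (1 without KO replicate 1 or 3 or WT replicate 2 or 3). With the filter on dim genes 3 of the 6 left were called (Myo5a added). Over all 22180 genes 515 were called (420 lower, 95 higher), and 178 with the replicate block (162 of them shared). With the filter on dim genes 705 of 11350 were called. When 1 array was left out 271 to 594 were called, with 327, 282, 322, 271 and 314 without WT replicates 1 to 5. The count was 280 without KO replicate 1, 594 without KO replicate 2, 344 without KO replicate 3 and 562 without KO replicate 4. The share of called genes that were higher was 18.4%, and 35.7% after quantile normalization (306 lower, 170 higher). Of the other 73 myosin genes 2 were called, 1 after quantile normalization, 0 with the replicate block (limma adjusted p = 0.184 for Myh9 and 0.115 for Rab27a) and 0 to 4 when 1 array was left out: 0 without KO replicate 1 or WT replicate 3 or 4, 1 without KO replicate 3 or WT replicate 1, 2 or 5, and 4 without KO replicate 2. Without KO replicate 4 the count stayed at 2, but the genes were Myo3b (lower) and Myo10 (higher) in place of Myh9 and Rab27a. The cause of these changes was not tested. Samples of the same replicate number did not deviate together (correlations from -0.115 to 0.042 in 4 pairs, against -0.218 to 0.159 in pairs of different number), so the numbers were not taken as pairs.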
